A study of Mus musculus with 6 samples.

Results

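The 10 genes described here encode transcription factors that direct B-cell development: Ebf1, Pax5, Tcf3, Ikzf1, Ikzf3, Bach2, Spi1, Irf4, Irf8 and Bcl6. They were taken by gene symbol from a table of 55487 genes, and each symbol matched 1 row. All 10 had enough counts to test, as had 14481 genes in all. The libraries hold messenger RNA of acute lymphoblastic leukaemia cells of the bone marrow of mice, which carried GFP and B220, a surface protein of the B lineage, when sorted. Knockout libraries (KO, replicates 2, 3 and 4) came from leukaemias that lack the microRNA miR-182, and wild-type libraries (WT, replicates 1, 3 and 4) from leukaemias that have it. The oncogene in both groups is BCR-ABL (P190), a fusion kinase, per the series' design text; the labels themselves give only the leukaemia and the genotype. A T-lineage leukaemia that the design text also names was not analysed here. Both groups passed through bone marrow transplantation into mice of 6 to 8 weeks, and every library carries the time label day 0, which is not explained. The labels call the wild-type cells of the sort 182WT or 182NC and do not define NC. They do not say how the knockout allele was made, whether a library is 1 mouse, or how many leukaemias were sampled. If libraries share a leukaemia, p-values measure only the spread between libraries.

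B cells arise from marrow progenitors in steps that these factors control. The E protein E2A, encoded by Tcf3, and EBF1 switch on the early B-cell programme, and PAX5 then commits cells to it by activating B-cell genes and silencing those of other lineages. IKAROS (Ikzf1) and AIOLOS (Ikzf3), 2 related zinc-finger proteins, together with IRF4 and IRF8, help large dividing pre-B cells to stop cycling and to rearrange light-chain genes. PU.1, encoded by Spi1, serves both the lymphoid and the myeloid lineages and is abundant in neutrophils and monocytes. BACH2 and BCL6 are BTB-domain repressors that act at the pre-B-cell receptor checkpoint. In human leukaemia driven by BCR-ABL, IKZF1 and PAX5 are among the genes most often deleted.

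Library totals ran from 20527487 to 29237035 counts in KO and from 17704382 to 23311040 counts in WT, at which 3 counts are worth 0.103 to 0.169 CPM (counts per 1e6 counts of a library). The microRNA gene Mir182 had 0 counts in all 6 libraries, KO and WT, and since mRNA libraries do not measure mature microRNAs the knockout could not be checked. The leading heavy-chain V segment was Ighv2-5 in all 3 KO libraries, with 25.8%, 30.6% and 35% of the heavy-chain V counts in replicates 2, 3 and 4. It was Ighv5-16 in all 3 WT libraries, with 26.4%, 38.3% and 32.7% in replicates 1, 3 and 4. A shared leading segment within each genotype means that genotype and a difference between leukaemias cannot be told apart. Counts of the Y-linked gene Ddx3y were 56, 109 and 184 in KO replicates 2, 3 and 4 and 0 in each WT library, while Xist, which is made from an inactive X chromosome, had 25594 to 35432 counts in KO and 15053 to 19347 in WT.

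The libraries also differed in RNA of genes that mark other blood cells. Of 17 neutrophil marker genes all were lower in KO, and their summed level was 1437, 3406 and 7247 CPM in KO replicates 2, 3 and 4, against 42448, 17432 and 30583 CPM in WT replicates 1, 3 and 4. As a share of all counts this was 0.147% to 0.759% in KO and 1.70% to 3.95% in WT. Monocyte markers summed to between 383 and 759 CPM in KO and between 1571 and 4631 CPM in WT, and 11 of 12 were lower in KO. No gene of either list was at 0 in all libraries. Of 10 B-lineage markers 2 were higher in KO (20%), 3 were lower (30%) and 5 did not pass, with a median log2 fold change of -0.18. Of all tested genes 23.9% were higher and 28.5% lower. Without WT replicate 4, 1 of the 10 was called higher. Their sums were 5281 to 6025 CPM in KO and 6073 to 6475 CPM in WT, so the B lineage of the cells showed in every library. That the sums in KO lay below those in WT rests on 1 gene of the list, Ptprc. It had 265, 297 and 281 CPM in KO replicates 2, 3 and 4 and 779, 411 and 522 CPM in WT replicates 1, 3 and 4. Summed without Ptprc, the KO and WT libraries overlapped. In such bulk samples, fewer cells of a type and less RNA per cell cannot be told apart.

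miR-182 lowers its targets by pairing bases 2 to 8 of its mature form, the seed, with sites in 3′ UTRs. The sequences below are shown because they are places where the whole seed could pair with transcripts of the 10 factors. RefSeq (GRCm38.p6) gives mature miR-182-5p at chr6:30165962-30165986 on the minus strand, and the seed stands in capitals:
mmu-miR-182-5p: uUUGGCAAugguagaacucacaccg
The 7-base match to this seed, TTGCCAA, occurred in the longest annotated 3′ UTR of 5 of the 10 genes, Ebf1, Pax5, Ikzf1, Ikzf3 and Bach2. The 6 sites follow as 27 bases each of the transcribed strand on GRCm38, with the match in capitals:
Ebf1 chr11:45006201-45006207: gattttttttTTGCCAAagttgtttta
Pax5 chr4:44530143-44530149: acagtccctcTTGCCAActctgaatag
Pax5 chr4:44525095-44525101: cagtgccaatTTGCCAAagatgttgga
Ikzf1 chr11:11772622-11772628: taacatcatcTTGCCAAaaaaaaaaaa
Ikzf3 chr11:98465539-98465545: ccaaccgtgcTTGCCAAgctcatattt
Bach2 chr4:32581301-32581307: aaaaacaatcTTGCCAAataatgaacc
In Ebf1, Ikzf1, Bach2 and the second Pax5 site the match is followed by an A, which makes the 8-base form TTGCCAAA. The other Pax5 site and that of Ikzf3 lack it. Bach2 also held 1 match of another form, TGCCAAA, which lacks the first T of the 8-base form. That match is neither shown nor counted here.

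Matches were more frequent among the 10 genes than in the background, and their 3′ UTRs were also longer. A match was found in 1428 of the 11972 tested genes with an annotated 3′ UTR, or 11.9%, at a median length of 1164 bases. The median of the 10 genes was 2696.5 bases, with 6749 bases in Pax5 and 362 in Spi1. Among 3′ UTRs of at least 2000 bases the share was 904 of 3559 genes, 25.4%, and 5 of the 6 factors of that length held a match. Irf4, with 3309 bases, was the long one without. Tcf3 (618 bases), Spi1, Irf8 (1519) and Bcl6 (1073) had no match either. A match is a stretch of letters and was not tested as a site of repression here.

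Most of the factors were more abundant in the KO leukaemia. At an adjusted p below 0.05 (edgeR quasi-likelihood test, adjusted over all 14481 genes), 7 of the 10 rose in KO, 2 fell and 1 did not pass. In these libraries 52.5% of all tested genes passed, 23.9% as higher and 28.5% as lower, so a call by itself was common. The ranges of the KO and WT libraries did not overlap for 9 of the 10, against 64% of all tested genes. The median log2 fold change of the 10 was 0.54, against -0.0015 for all genes. Levels below are TMM-normalised CPM, a fold change is the log2 of KO over WT and comes with its standard error (SE), and every adjusted p is from this edgeR fit unless another is named.

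**Figure D1:**
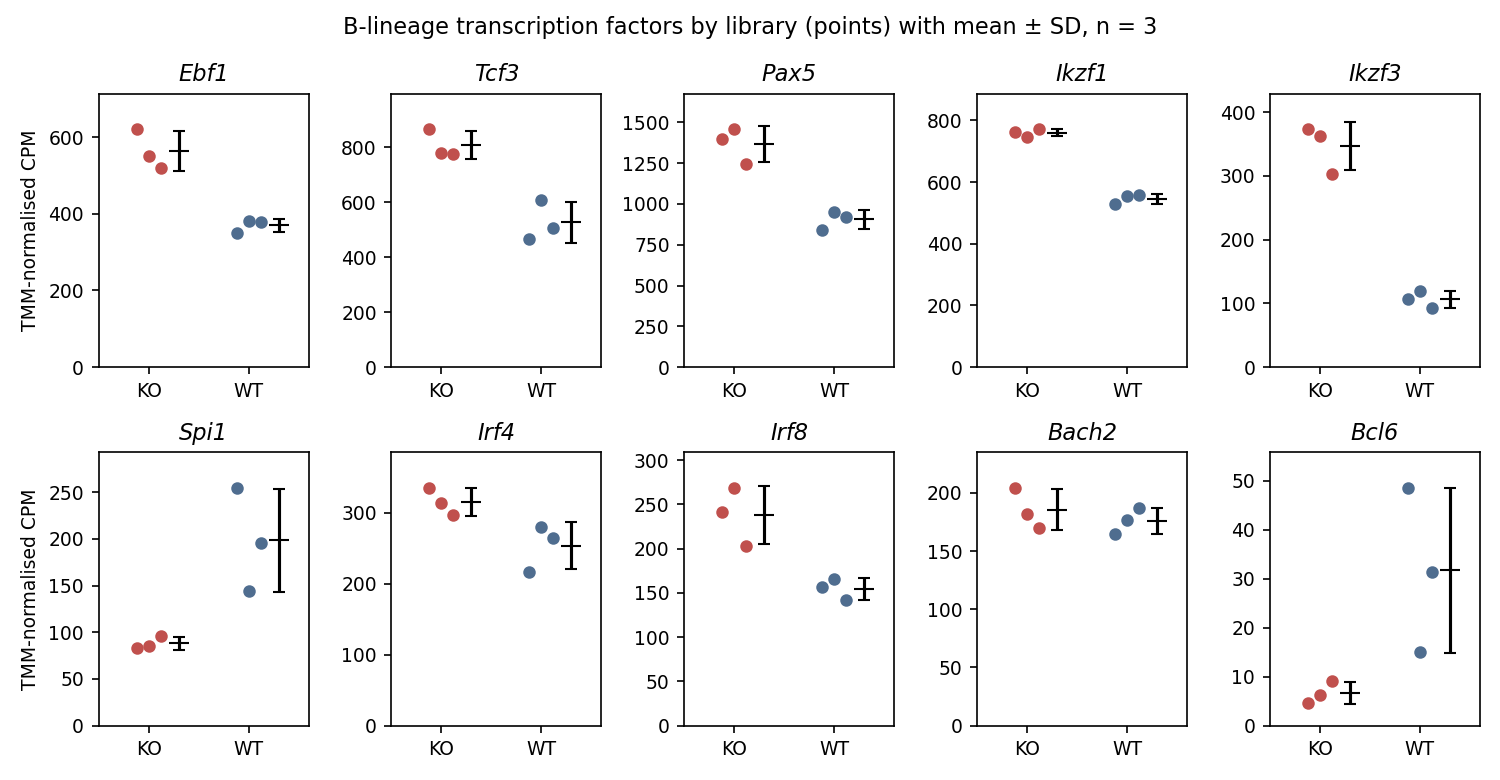
Level of each of the 10 transcription factors in each library, in TMM-normalised CPM, with KO replicates 2, 3 and 4 on the left and WT replicates 1, 3 and 4 on the right; bars mark the mean and the SD of 3 libraries. Ikzf3 stands at 303 to 373 CPM in KO and 93.2 to 120 CPM in WT, Bcl6 at 4.58 to 9.04 CPM in KO and 15.02 to 48.6 CPM in WT, and Bach2 overlaps between the genotypes.

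The 3 factors that set up and fix B-cell identity rose together by about the same amount. Ebf1, the early B-cell factor (ENSMUSG00000057098, chr11:44617317-45008091, plus strand), stood at 621, 550 and 518 CPM in KO replicates 2, 3 and 4 and at 350, 380 and 379 CPM in WT replicates 1, 3 and 4. The lowest KO library was above the highest WT library by more than the spread within either genotype. Means were 563 ± 52.5 CPM in KO and 370 ± 16.9 CPM in WT (SD, n = 3 each), so the log2 fold change was 0.61 (SE 0.09, edgeR adjusted p = 0.00228).

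Pax5, the commitment factor (ENSMUSG00000014030, chr4:44524757-44710487, minus strand), had 1398, 1458 and 1242 CPM in KO and 843, 953 and 921 CPM in WT. It was the most counted of the 10 in every library. KO averaged 1366 ± 112 CPM and WT 906 ± 56.4 CPM (SD, n = 3 each), and the log2 fold change was 0.59 (SE 0.10, edgeR adjusted p = 0.00325). Tcf3, which encodes the E2A proteins E12 and E47 (ENSMUSG00000020167, chr10:80409514-80433647, minus strand), had 866, 780 and 777 CPM in KO and 465, 609 and 507 CPM in WT. All KO libraries were again above all WT libraries, with WT replicate 3 the nearest. Its means were 807 ± 50.8 CPM in KO and 527 ± 73.9 CPM in WT (SD, n = 3 each), which gives 0.62 on the log2 scale (SE 0.12, edgeR adjusted p = 0.00504).

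The balance between Ebf1 and Pax5 was compared within each library. Per kilobase of exon, Ebf1 stood at 0.403, 0.342 and 0.379 of the Pax5 level in KO and at 0.377, 0.362 and 0.373 in WT. The difference in log2 ratio was 0.01 (two-sided exact permutation test, p = 0.8; p = 0.8 after adjustment over 5 ratios), where 3 against 3 libraries cannot go below 0.1.

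Both IKAROS-family members rose, AIOLOS with the larger fold change. Ikzf3 (ENSMUSG00000018168, chr11:98464902-98546031, minus strand) had 373, 363 and 303 CPM in KO and 107, 120 and 93.2 CPM in WT. The groups were widely apart, and the lowest KO library held more than the highest WT library by a wide margin. With 346 ± 37.6 CPM in KO and 107 ± 13.4 CPM in WT (SD, n = 3 each), the log2 fold change was 1.70 (SE 0.12, edgeR adjusted p = 0.000135), a 3.25-fold difference and the largest rise of the 10.

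Ikzf1 (ENSMUSG00000018654, chr11:11685003-11772926, plus strand), whose product shapes lymphoid chromatin from the stem-cell stage on, varied least between replicates. It had 762, 747 and 771 CPM in KO and 528, 554 and 557 CPM in WT, with means of 760 ± 12.2 CPM in KO and 546 ± 15.9 CPM in WT (SD, n = 3 each). The log2 fold change was 0.48 (SE 0.07, edgeR adjusted p = 0.00227). Per kilobase, the Ikzf3 level was 0.323, 0.320 and 0.260 of the Ikzf1 level in KO and 0.133, 0.143 and 0.111 in WT. The log2 ratio was higher by 1.22 in KO and the ranges did not overlap; the two-sided exact permutation p was 0.1, the smallest this design allows, and 0.25 after adjustment over the 5 ratios. Ikzf1 and Ikzf3 lie on chromosome 11 with Ebf1, far apart along it.

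The PU.1 and IRF group moved in both directions. Spi1 (ENSMUSG00000002111, chr2:91082390-91115756, plus strand) had 82.7, 85.5 and 95.9 CPM in KO and 255, 144 and 196 CPM in WT. KO libraries were close together and below all WT libraries, which themselves spread widely. Means were 88.0 ± 6.96 CPM in KO and 198 ± 55.2 CPM in WT (SD, n = 3 each), and Spi1 fell by 1.17 on the log2 scale (SE 0.20, edgeR adjusted p = 0.00308), which is 2.25-fold lower. The order of the libraries in Spi1 was that of their neutrophil marker sum within both genotypes, from KO replicate 2 to 4 and from WT replicate 3 over 4 to 1.

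Irf8, a partner of PU.1 in B cells and in monocytes (ENSMUSG00000041515, chr8:120736358-120756694, plus strand), went the other way from Spi1. It had 242, 269 and 203 CPM in KO and 157, 166 and 142 CPM in WT, with no overlap. KO averaged 238 ± 32.9 CPM and WT 155 ± 12.3 CPM (SD, n = 3 each), higher by 0.62 on the log2 scale (SE 0.12, edgeR adjusted p = 0.00482). Irf4, which acts with IRF8 in pre-B cells and later drives plasma cells (ENSMUSG00000021356, chr13:30749226-30766976, plus strand), had 335, 314 and 297 CPM in KO and 216, 281 and 264 CPM in WT. The groups did not overlap, but the lowest KO library was close to the highest WT library. Means were 316 ± 19.4 CPM in KO and 254 ± 33.4 CPM in WT (SD, n = 3 each), and the log2 fold change of 0.31 (SE 0.11) lay just past the threshold (edgeR adjusted p = 0.0487). Without KO replicate 2, 3 or 4 or WT replicate 1 or 4 that call was lost, with an adjusted p of 0.0616 to 0.127, while without WT replicate 3 it was 0.0197.

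Ratios in this group did not pass a test. Irf4 per kilobase stood at 2.00, 1.68 and 2.10 times Irf8 in KO and at 1.99, 2.43 and 2.69 times in WT, a log2 difference of -0.29 (two-sided exact permutation p = 0.3; 0.375 adjusted over 5). The size of this and of the other per-kilobase ratios rests on the GENCODE lengths. With those of the authors' table the means of Irf4 over Irf8 gave 0.793 in KO and 0.981 in WT, while the log2 difference between genotypes does not depend on length. Spib encodes SPI-B, an ETS factor related to PU.1 that is found in B cells and plasmacytoid dendritic cells. It had 188, 210 and 140 CPM in KO and 117, 287 and 118 CPM in WT, a log2 difference of 0.04 (SE 0.36, edgeR adjusted p = 0.932). The ratio of Spi1 to Spib per kilobase was 0.467, 0.433 and 0.729 in KO and 2.31, 0.535 and 1.77 in WT, so that WT replicate 3 lay within the KO range. The log2 difference was -1.30 (two-sided exact permutation p = 0.2; 0.333 adjusted over 5).

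The BTB repressors were the pair with the most unlike behaviour. Bcl6 (ENSMUSG00000022508, chr16:23965052-23988852, minus strand) had only 4.58, 6.35 and 9.04 CPM in KO and 48.6, 15.02 and 31.5 CPM in WT, from 96, 179 and 277 counts in KO and 801, 341 and 551 in WT. The groups did not overlap, and both spread more in proportion to their mean than any other of the 10. With 6.66 ± 2.24 CPM in KO and 31.7 ± 16.8 CPM in WT (SD, n = 3 each), Bcl6 fell by 2.24 on the log2 scale (SE 0.44, edgeR adjusted p = 0.00566), 4.71-fold. As for Spi1, the libraries stood in the order of their neutrophil marker sum within KO and within WT. For Ebf1, Tcf3 and Irf4, which rose, they stood in the reverse of that order within both genotypes.

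Bach2 (ENSMUSG00000040270, chr4:32238804-32586108, plus strand) was the 1 factor of the 10 that did not pass. It had 204, 182 and 170 CPM in KO and 165, 177 and 187 CPM in WT, and the groups overlapped. Means were 186 ± 17.4 CPM in KO and 176 ± 11.1 CPM in WT (SD, n = 3 each), with a log2 difference of 0.08 (SE 0.09, edgeR adjusted p = 0.514). Per kilobase, Bach2 was 30.1, 19.3 and 12.7 times as high as Bcl6 in KO and 2.28, 7.93 and 3.995 times in WT. The log2 ratio was higher by 2.22 in KO, with an exact permutation p of 0.1, two-sided and the smallest possible, and 0.25 after adjustment over 5 ratios.

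Promoter sequence was available from RefSeq (GRCm38.p6) for 8 of the 10 genes, in 12 windows from 250 bases before to 50 bases after a start site. Ikzf3 and Spi1 had no window. TTCNNNGAA, which STAT factors bind and BCL6 can also bind, was searched on both strands (it is its own reverse complement) and occurred in 5 of the 12 windows, against 2726 of 32851 windows, 8.3%, in all. The internal start of Bcl6 held 3 matches, and 3 or more were found in only 11 of all windows, 0.03%. It is shown because Bcl6 had the largest change of the 10, so it was chosen with that change known, and its rarity is no test. As background, STAT5, which BCR-ABL activates, is a known repressor of Bcl6 in such cells. Both groups carry BCR-ABL, STAT5 activity was not measured, and a part of STAT5 in the Bcl6 change was not tested. The window is chr16:23981234-23981533 on the minus strand, with the matches in capitals:
Bcl6 internal start: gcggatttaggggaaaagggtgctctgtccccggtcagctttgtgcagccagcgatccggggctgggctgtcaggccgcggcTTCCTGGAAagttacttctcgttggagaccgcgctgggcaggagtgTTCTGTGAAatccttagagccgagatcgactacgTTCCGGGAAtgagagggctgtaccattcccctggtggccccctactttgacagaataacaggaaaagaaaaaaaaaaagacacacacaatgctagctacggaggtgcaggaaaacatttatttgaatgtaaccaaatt
The upstream start of Bcl6 held 1 match. Other motifs were searched on both strands in the same windows. The E-box form CAGNTG occurred in 1 of the 12, against 51.4% of all windows, the IKAROS core TGGGAA in 3, against 25.6%, and the PU.1 core GAGGAA in 3, against 28.3%. The IRF repeat occurred in 1, against 3.4%, and the ETS-IRF composite, which can overlap it, in 2, against 2.7%. The EBF palindrome and the BACH element occurred in 0 of the 12, against 0.9% and 0.2% of all windows. Windows of 1 gene are not independent. A match is a description of the letters, and binding was not measured here.

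**Figure D2:**
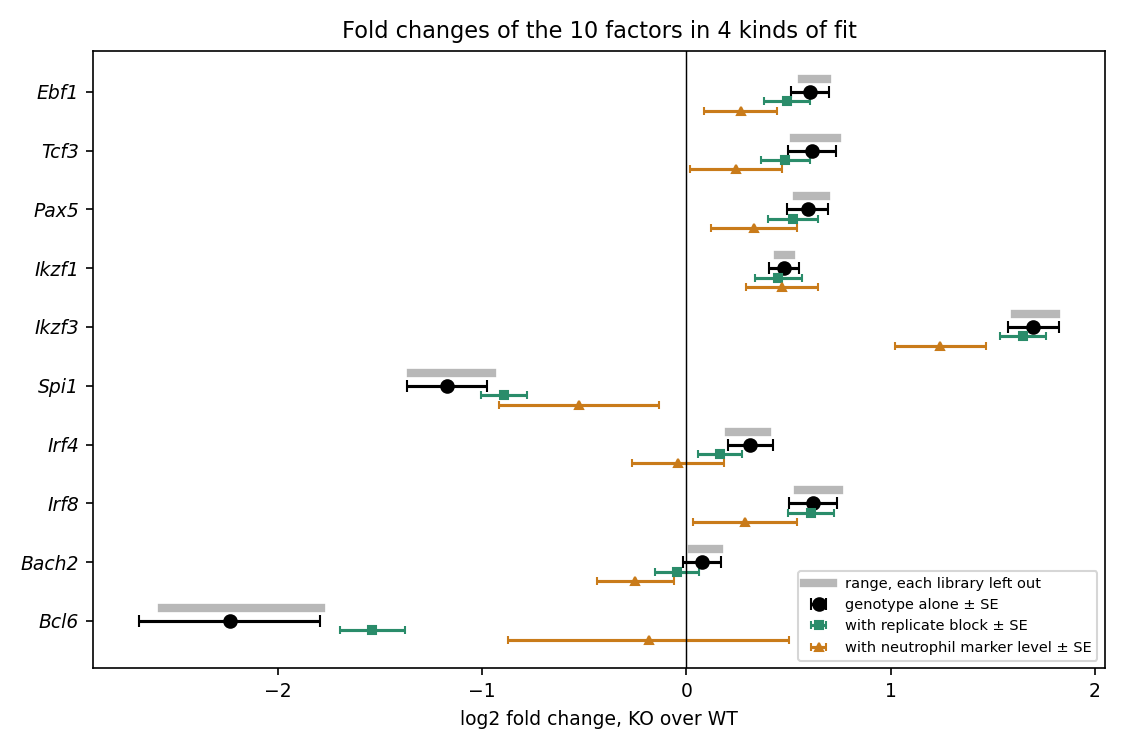
Log2 fold change KO over WT of each factor: black, genotype alone with SE; green, with the replicate number as a block; orange, with a covariate for the neutrophil markers of each library; grey lines, the range when each library is left out in turn. With genotype alone and with the neutrophil covariate, Ikzf3 is at 1.70 and 1.24 and Bcl6 at -2.24 and -0.19.

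The fit was repeated with the mean log2 level of the neutrophil markers of each library as a covariate. Genotype itself took 81.7% of the variance of that level, and the SE of each of the 10 was larger in this fit. Here Bcl6 was at -0.19 (SE 0.69, edgeR adjusted p = 0.918) and Spi1 at -0.52 (SE 0.39, adjusted p = 0.556). Ikzf3 passed, at 1.24 (SE 0.22, edgeR adjusted p = 0.0283), and was the only one of the 10 to do so.

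The other values under this covariate were 0.27 for Ebf1 (SE 0.18, adjusted p = 0.507), 0.33 for Pax5 (SE 0.21, 0.485), 0.24 for Tcf3 (SE 0.23, 0.645) and 0.47 for Ikzf1 (SE 0.18, 0.242). Irf8 was at 0.29 (SE 0.26, adjusted p = 0.629), Irf4 at -0.04 (SE 0.22, 0.948) and Bach2 at -0.25 (SE 0.19, 0.564). Ikzf1 had nearly the same estimate as without the covariate, and its SE was larger. Of all genes, 204 passed as higher and 340 as lower in this fit. What part neutrophil RNA had in the change of any of the 10 was not tested.

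**Figure D3:**
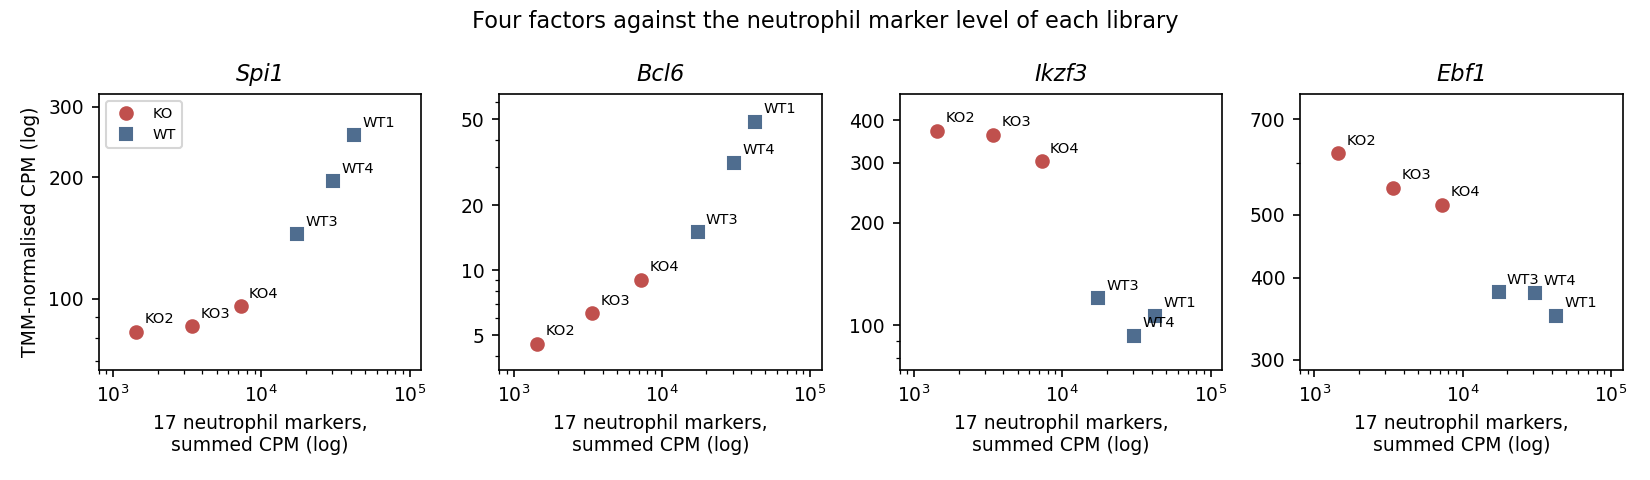
Level of Spi1, Bcl6, Ikzf3 and Ebf1 (vertical, TMM-normalised CPM) against the summed level of 17 neutrophil markers (horizontal, CPM, log axis) in the 3 KO and the 3 WT libraries. Within both KO and WT, Bcl6 and Spi1 are higher and Ebf1 is lower where the marker sum is higher. Ikzf3 at 303 to 373 CPM in KO is apart from 93.2 to 120 CPM in WT.

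Levels of different genes were compared only per kilobase of exon (CPM per kb, GENCODE M21 lengths). In KO the order of the means was Tcf3 (199.9 CPM per kb), Pax5 (154), Ikzf1 (132), Irf4 (64.3), Ebf1 (57.7), Ikzf3 (39.6), Irf8 (33.7), Spi1 (32.7), Bach2 (18.7) and Bcl6 (0.994). Neighbours in this order whose libraries overlapped were Irf4 and Ebf1, Ikzf3 and Irf8, and Irf8 and Spi1.

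In WT the order was Tcf3 (130 CPM per kb), Pax5 (102), Ikzf1 (94.5), Spi1 (73.6), Irf4 (51.8), Ebf1 (37.9), Irf8 (21.9), Bach2 (17.7), Ikzf3 (12.2) and Bcl6 (4.73). Overlap was seen between Pax5 and Ikzf1, Ikzf1 and Spi1, and Spi1 and Irf4. With these lengths the genes for E2A, PAX5 and IKAROS had the highest means in both genotypes.

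Against all tested genes, Tcf3 stood at percentile 98.7 in KO and 97.8 in WT, and Ikzf3 at 91.2 in KO and 68.2 in WT. Bcl6 was in the lower part of the distribution in both, at percentile 21.7 in KO and 44.1 in WT. Both the order and the percentiles depend on the lengths used. The authors' table gives Spi1 544 bases of exon, 20.2% of the 2695 bases in GENCODE, Ikzf3 3658 against 8754, and Irf8 2847 against 7055. With the authors' lengths, an alternative chosen after seeing the data, Spi1 ranked 3 in KO (162 CPM per kb) and 1 in WT (365 CPM per kb), and Ikzf1 ranked 4 in both. Ikzf3 was then below Spi1 in KO (94.7 CPM per kb) and above Bach2 in WT (29.2 against 19.8 CPM per kb). Bcl6 was last in both genotypes with either set of lengths.

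**Figure D4:**
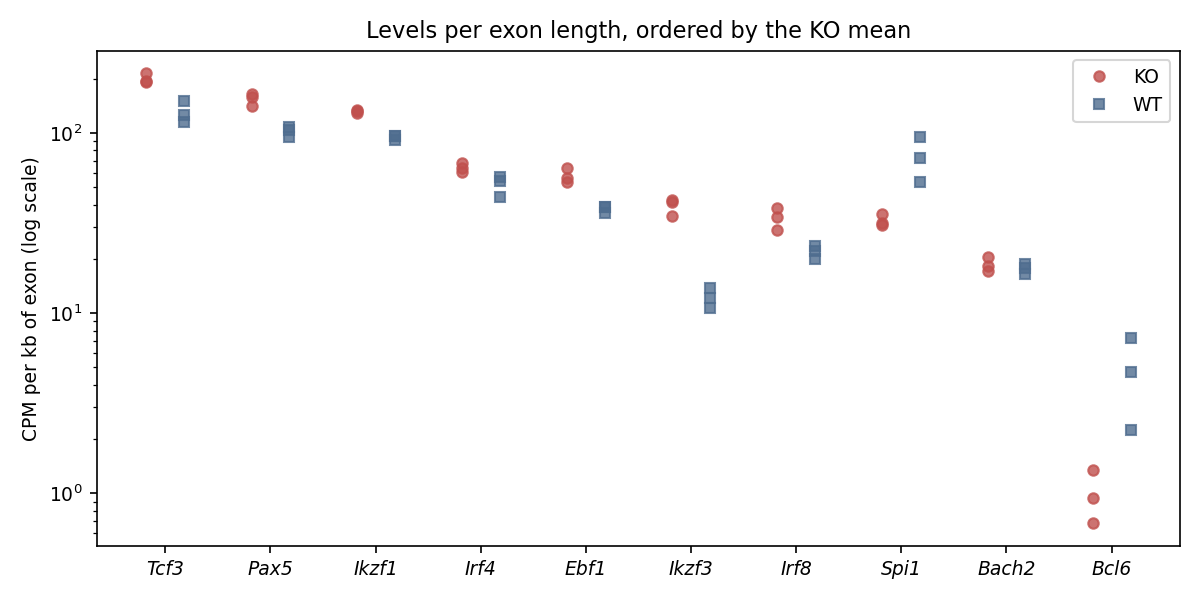
Level of the 10 factors per kilobase of exon (CPM per kb, log axis) in each KO and WT library, ordered by the KO mean. With GENCODE lengths Tcf3, Pax5 and Ikzf1 have the highest means in both genotypes, and Bcl6 is last in both, at 0.994 CPM per kb in KO and 4.73 in WT.

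E2A works as a dimer with itself or with other E proteins, and ID proteins block it. Of 5 tested genes of this system beside Tcf3, 2 rose and 2 fell, 40% each, where 23.9% of all tested genes rose and 28.5% fell. The E proteins rose: Tcf4, which encodes E2-2, had 148 ± 5.18 CPM in KO and 82.5 ± 13.6 CPM in WT (SD, n = 3 each; log2 fold change 0.84, SE 0.12, edgeR adjusted p = 0.0018), and Tcf12, which encodes HEB, rose by 0.40 (SE 0.09, edgeR adjusted p = 0.0113). The inhibitors Id1 (-2.54, SE 0.53, edgeR adjusted p = 0.00673) and Id2 (-1.77, SE 0.36, adjusted p = 0.00605) fell. A further inhibitor, Id3, did not pass and leaned upward (0.30, SE 0.16, edgeR adjusted p = 0.148). Its means of 73.1 CPM in KO and 59.6 CPM in WT, not scaled by exon length, were above those of Id1 and Id2. Id2 stood at 13.2, 17.2 and 16.1 CPM in KO and at 86.7, 33.7 and 39.3 CPM in WT. Id1 stood at 2.24, 3.02 and 4.21 CPM in KO and at 33.9, 8.85 and 13.2 CPM in WT. The libraries stood in the order of their neutrophil marker sum within both genotypes for Id1, and within WT alone for Id2. The part of that RNA in these falls was not tested. Without WT replicate 4, 1 of the 5 was called higher.

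Among paralogues and partners of the 10 factors, 6 of 18 tested genes rose (33.3%) and 4 fell (22.2%). Of all tested genes 23.9% rose and 28.5% fell. Where at least 1 CPM in 3 libraries was required, 2 of this list fell. Ikzf4, the gene of the IKAROS relative EOS, had 8.60, 11.2 and 7.44 CPM in KO and 0.486, 0.881 and 0.457 CPM in WT, and so rose by 3.85 on the log2 scale (SE 0.30, edgeR adjusted p = 0.000174). Irf1, an interferon-induced member of the IRF family, fell by 1.04 (SE 0.17, edgeR adjusted p = 0.00312). The octamer-binding factors Pou2f1 (0.41, SE 0.07, adjusted p = 0.00353) and Pou2f2 (1.04, SE 0.19, adjusted p = 0.00407) rose. Of the other lymphoid transcription factors 3 of 15 rose (20%) and 5 fell (33.3%), near the shares of all tested genes. Aff3 rose by 0.50 (SE 0.08, edgeR adjusted p = 0.00308), and Cux1 (-0.97, SE 0.11, 0.000892), Klf2 (-1.93, SE 0.26, 0.00136) and Erg (-0.44, SE 0.08, 0.00351) fell. In this list 6 were called higher without WT replicate 3 and in limma-voom, and 5 with no filter on low counts.

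Genes that EBF1 or PAX5 are known to activate were called in both directions. There were 2 that rose (12.5%) and 3 that fell (18.75%) among 16 tested, beside 23.9% and 28.5% of all tested genes. The other 11 missed the threshold, and the median log2 fold change was -0.01. The signalling adaptor Blnk (-0.91, SE 0.09, edgeR adjusted p = 0.000489), the kinase Blk (-1.13, SE 0.25, 0.00823) and Fcrla, an Fc receptor-like gene of B cells (-1.53, SE 0.16, 0.000487) fell. Blnk had 329, 302 and 301 CPM in KO and 635, 532 and 580 CPM in WT. The number called higher was 4 without WT replicate 3, 1 without WT replicate 4 and 6 in limma-voom.

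Of 11 genes that PAX5 represses, 1 rose (9.1%) and 6 fell (54.5%), with a median of -0.88. Of all tested genes 23.9% rose and 28.5% fell. Notch1, the receptor that directs T-cell fate (-0.88, SE 0.09, edgeR adjusted p = 0.000511), Emb (-2.81, SE 0.31, 0.000695) and the chemokine gene Ccl3 (-2.11, SE 0.26, 0.00102) fell. Grap2, which encodes a T-cell adaptor, rose by 2.53 (SE 0.26, edgeR adjusted p = 0.000482), with 48.1, 50.9 and 44.3 CPM in KO and 10.4, 9.42 and 4.86 CPM in WT. Markers of myeloid, dendritic or plasma cells make up 6 of the 11, though not all of these 6 were called lower. Emb is not among them, yet its libraries stood in the order of the neutrophil marker sum within both genotypes. It had 14.2, 16.6 and 27.8 CPM in KO and 175, 97.2 and 141 CPM in WT. The fall of the neutrophil and monocyte markers stands beside the count of this list, and its part in that count was not tested.

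BCL6 represses cell-cycle inhibitors, damage-response and activation genes. While Bcl6 itself fell in KO, 3 of 14 such genes rose (21.4%) and 7 fell (50%), beside 23.9% and 28.5% of all tested genes. Cdkn2a, which encodes the tumour suppressors ARF and INK4A, had 245, 227 and 220 CPM in KO and 0.971, 0.705 and 0.686 CPM in WT. From only 16, 16 and 12 counts in WT replicates 1, 3 and 4, it rose by 8.20 on the log2 scale (SE 0.14, edgeR adjusted p = 4.91e-07). Cdkn1a, the gene of the inhibitor p21, went the other way, with 5.59, 6.07 and 6.85 CPM in KO and 42.2, 47.4 and 32.8 CPM in WT (-2.72, SE 0.16, edgeR adjusted p = 5.89e-05). The activation genes Cd44 (-2.39, SE 0.30, edgeR adjusted p = 0.00108) and Cd80 (-2.17, SE 0.29, 0.00137) fell. Cd44 had 33.3, 41.9 and 57.6 CPM in KO and 314, 155 and 228 CPM in WT, so its libraries, too, stood in the order of the neutrophil marker sum within KO and within WT. The part of that RNA in these falls was not tested. Whether the fall of Bcl6 had a part in any change of this list was not tested either. Genotype and a difference between leukaemias cannot be told apart here. The list had a median of -0.49, and under the neutrophil covariate 1 of its genes was called higher and 1 lower.

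Of 12 tested transcription factors of other blood lineages, 0 rose, 9 fell and 3 did not pass, with a median of -2.06. The myeloid factors Cebpb (-2.61, SE 0.45, edgeR adjusted p = 0.00338), Cebpa (-2.12, SE 0.37, 0.00362) and Cebpe (-2.73, SE 0.53, 0.00527) fell with the neutrophil markers, whose median was -2.95. Gata3, the T-lineage factor, had 0.0478, 0.248 and 0.261 CPM in KO and 4.37, 5.59 and 4.63 CPM in WT (-4.59, SE 0.39, edgeR adjusted p = 0.000246). Under the neutrophil covariate 0 of the 12 passed, and 2 genes of all 7 lists rose and 3 fell, against 17 and 35 with genotype alone.

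**Figure D5:**
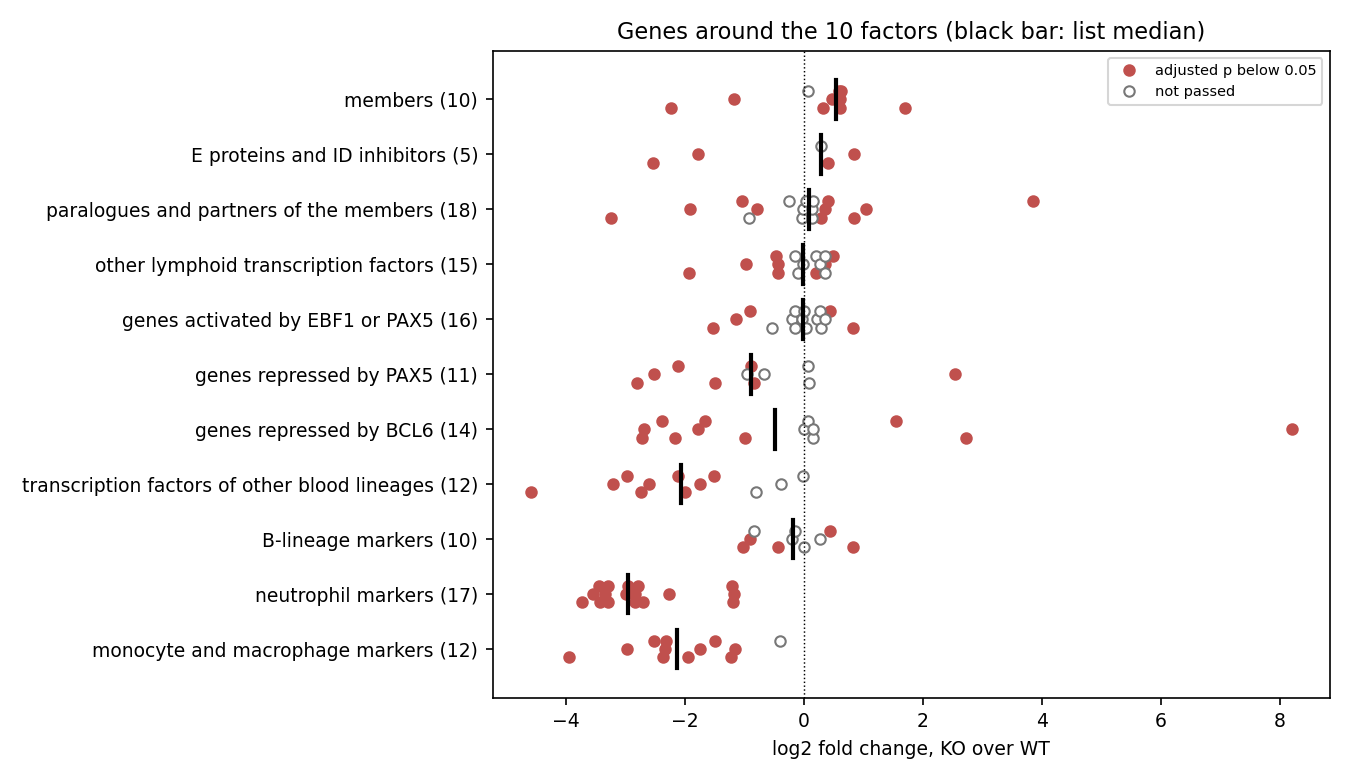
Log2 fold change KO over WT of the tested genes in each list around the 10 factors, with the list median as a bar and the median of all 14481 genes as a dotted line. Among the lists around the factors, PAX5-repressed genes, at -0.88, and factors of other lineages, at -2.06, have the lowest medians. The medians of the neutrophil markers, at -2.95, and of the monocyte and macrophage markers, at -2.14, are lower than both. The EBF1 and PAX5 targets spread around the line, at -0.01.

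Markers of further cell types were also counted. Of T-cell markers 5 of 7 tested fell, of NK-cell markers 2 of 4, and of conventional dendritic markers 1 of 5. Of 6 plasma-cell markers 2 fell, Cd93 and Xbp1, 1 rose, Prdm1, and 3 did not pass, so the falls do not stand for that list. Of plasmacytoid dendritic markers 3 of 6 fell and 1 rose (Tcf4). Of 5 erythroid markers 1 rose, Car2. These small counts depend on single libraries: plasmacytoid markers had 1 fall without KO replicate 2 or 3 or WT replicate 4, conventional dendritic markers 4 without WT replicate 3 and 0 without any other library, and erythroid markers 4 rises without WT replicate 1 and 2 without WT replicate 3. T-cell markers summed to between 15.04 and 18.7 CPM in KO and between 56.6 and 113.8 CPM in WT, and NK-cell markers to between 4.25 and 6.42 CPM in KO and between 48.2 and 91.7 CPM in WT. A large part of each sum was 1 gene. In WT replicates 1, 3 and 4 Lck had 45.2, 105 and 44.0 CPM, and Klrb1c had 56.8, 43.2 and 47.8 CPM. The sums therefore do not stand for all genes of their lists. Without WT replicate 3 the falls were 10 of the T-cell and 7 of the NK-cell genes, and without KO replicate 2, 3 or 4 the T-cell genes had 2 or 3 falls.

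Chromosomal neighbours of the 10 genes were called in both directions. Within 1 Mb of the 10 lay 263 tested genes, of which 34.6% rose and 23.2% fell, beside 23.9% and 28.5% of all tested genes. Within 250 kb, 41.2% rose and 13.75% fell. Around Ikzf3, 16 of 48 neighbours rose and 13 fell, with a median of 0.12 against 1.70 for the gene itself. Its nearest tested neighbours were Zpbp2, which did not pass (0.90, edgeR adjusted p = 0.0599), and Grb7, an adaptor gene, which fell by 3.99 (SE 0.12, adjusted p = 3.41e-06) at a gap of 9529 bases.

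Bcl6 had 9 tested neighbours, 2 risen and 2 fallen, with a median of 0.03. Spi1 had 31, 8 risen and 5 fallen, with a median of 0.01, although the adjoining Mybpc3 fell by 1.34 (SE 0.35, edgeR adjusted p = 0.0164). Around Ebf1 2 of 7 rose, around Pax5 11 of 32 rose and 8 fell, and around Tcf3 36 of 93 rose and 22 fell, with medians of 0.13, 0.10 and 0.15 in that order. Ikzf1 had the neighbourhood with the highest median, 0.85, from 6 genes, of which 4 rose and 1, Ddc, fell. Around Irf8 6 of 15 rose and 8 fell, and around Irf4 0 of 10 rose and 1 fell. Around Bach2 6 of 12 rose and 1 fell; one of these, Bach2it1, overlaps Bach2, and the use of strand in counting is not stated here, so reads of the overlapping pair may not be separable.

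Values of the 5 factors with a seed match and of the 5 without are given side by side. Log2 fold changes were 0.61 (Ebf1), 0.59 (Pax5, with 2 sites), 0.48 (Ikzf1), 1.70 (Ikzf3) and 0.08 (Bach2) with a match. They were 0.62 (Tcf3), 0.62 (Irf8), 0.31 (Irf4), -1.17 (Spi1) and -2.24 (Bcl6) without one. Of the 5 with a match 4 rose and 1 did not pass, and of the 5 without 3 rose and 2 fell. Whether the match had a part in these values was not tested.

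The authors' deposited table of their own DESeq2 comparison gave the same directions. Its log2 fold changes ran from -2.22 for Bcl6 and -1.15 for Spi1 to 1.72 for Ikzf3, with an FDR of 2.39e-33 for Ikzf3, 0.0255 for Irf4 and 0.529 for Bach2 in the authors' deposited table.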

How the data were processed

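The mRNA libraries of sorted mouse leukaemia cells were analysed, 3 KO and 3 WT by the genotype in the labels, each made from 1.3 ug of total RNA. The authors deposited whole-number counts per Ensembl gene. Per the submitters' processing notes the build was GRCm38, also called mm10. Aligner and counter: not given in the sources used here. Log2 fold changes, p-values and FDR in the authors' comparison table come from DESeq2, per the file headers.

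Counts were tested with edgeR 4.0.16 (quasi-likelihood F test, TMM, filterByExpr with a minimum count of 10 and total of 15, Benjamini-Hochberg over 14481 genes, threshold 0.05) in R 4.3.3. limma 3.58.1 and DESeq2 1.42.0 served as alternatives, besides other filters and scalings, the replicate number as a block, a neutrophil covariate and leaving out each library. The fit was tested on simulated data. Ratios used a pseudocount of 0.5 and exact permutation. Per-kilobase levels use GENCODE M21 exon lengths. Figures were drawn with matplotlib 3.10.9.

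The members and lists were chosen with earlier results of these data known. Named genes are the 10 members, up to 4 genes of smallest p per list, Spib, and up to 2 nearest neighbours per member. Id3 was added after its values were seen. Mir182, Ddx3y, Xist and the leading V segments serve only to describe the libraries. A gene that the rule names is not reported here. Lists share some genes, such as Id2 and Tcf4. Floors of 3 counts cover counting error only.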

Additional observations from a re-analysis of the deposited data

How the results depend on the processing

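Over 15 alternatives for each of the 10 factors, 134 of 150 values kept direction and side of the threshold, 13 were no longer past it and 3 turned round. With the neutrophil level as a covariate 204 genes were called higher and 340 lower, 1 of the 10 factors was higher and 0 lower, and of the genes in the 7 lists 2 were higher and 3 lower; Bach2 turned to -0.25 and Irf4 to -0.039. This covariate is mostly genotype, and the cause of the lost calls was not tested. limma-voom called 27 list genes higher. Within 250 kb, 13.75% of neighbours were lower. Leaving out 1 library gave 2396 to 3848 genes higher and 3218 to 4479 lower, and moved the log2 difference of the Ebf1 to Pax5 ratio between -0.042 and 0.075, turning round without KO replicate 2 and without WT replicate 3.

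Only numbers 3 and 4 occur in both genotypes, and the deviations of same-numbered libraries correlated at 0.03 and 0.16. Pairs with unlike numbers ran from -0.35 to 0.33. So few values cannot show whether same-numbered libraries share more than a number. With the replicate number as a block, only numbers 3 and 4 compare the genotypes. In that edgeR fit 2925 genes were higher and 3842 lower, and Bach2 was at -0.045. Irf4 (0.17, edgeR adjusted p = 0.232) was the 1 factor whose call was lost. Bcl6 had the fewest counts of the 10, 96 to 277 in KO. Its SD between libraries was 33.7% of the mean in KO and 53.0% in WT.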
